A study of Homo sapiens with 3 samples.

Results

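The collagen genes were taken as every row of the count table whose symbol is COL, a number, A and a number, without antisense rows. This rule found 43 genes of the 32738 in the table, and it uses no measured value. The genes were followed by droplet single-cell sequencing in chambered cardiac organoids (CCOs) at day 8 (D8), D14 and D21 of differentiation, all grown from H7, a line of human embryonic stem cells. In the study's methods, the cells were first turned into cardiac cells with the GSK3 inhibitor CHIR99021 followed by the Wnt inhibitor IWP-2. They were then aggregated in Matrigel at day 7, kept in cardiosphere growth medium (CGM) until D14 and matured in RPMI/B27 in a spinner flask until D21. D8 cells thus had 1 day in CGM, D14 cells had the whole CGM stage, and D21 cells had both stages. All 3 groups share this 1 unmodified line and carry no transgene, and no untreated or drug arm is among them. Each day is 1 library of dissociated organoids, and the number of organoids pooled in it is not given in the sources used here. A difference between days therefore cannot be told apart from one between libraries and was not tested, and every interval below is a 95% interval that covers counting error only.

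Collagens are secreted or membrane proteins whose 3 chains wind into a triple helix. The chains are hydroxylated and folded with the help of dedicated enzymes in the endoplasmic reticulum, trimmed outside the cell and, in the fibrillar types, crosslinked into fibres. Types I and III are the bulk fibres of the heart wall and are known as products of cardiac fibroblasts, type II with types IX and XI forms the fibrils of cartilage, and type IV is the sheet of basement membranes around muscle cells and under endothelium and epithelium. By role, the 43 genes were 8 fibrillar, 7 cartilage, 9 basement membrane, 5 beaded filament (type VI), 2 network (type VIII), 7 FACIT (collagens that sit on other fibrils), 4 transmembrane and 1 other gene.

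Cells were the barcodes with a gene count between 2000 and 7500 and a mitochondrial share of UMIs under 10%, where a UMI (unique molecular identifier) marks 1 captured mRNA molecule. This left 2657 cells and 46767738 UMIs at D8, 3585 cells and 50247286 UMIs at D14, and 1946 cells and 30898727 UMIs at D21. The median depth per cell was 12282 to 15316 UMIs. The D21 library stood apart: 1982 of its 3928 barcodes within the limits on genes were over the mitochondrial limit, against 11 of 2668 at D8 and 204 of 3789 at D14. Kept cells of different libraries shared 9 to 14 barcode sequences. Clusters made without the collagen genes gave cardiomyocyte (CM)-like cells (476, 1097 and 548 cells at D8, D14 and D21), fibroblast-like cells (341 and 813 at the later days), endothelial-like cells (48, 53 and 40), endoderm-like cells (258, 213 and 307) and dividing cells (350, 458 and 174). The CM-like clusters met 8 to 10 of 10 CM markers and the endothelial-like cluster 8 of 8. The fibroblast-like cluster of D14 met only 4 of 8 markers (DCN, LUM, PDGFRB and POSTN), with 2 chondrocyte markers next, and that of D21 met 7. Different clusters held a class on different days. CM-like cells came from a MYH6-led cluster at D8, mainly from a MYL3-led one at D14 and from clusters led by MYL7 and by ANKRD45 at D21. Fibroblast-like cells came from a cluster led by MGP, CTSB and MTUS1 at D14 and from one led by TAC1, PLAT, MGP and STMN2 at D21. Endoderm-like cells came from a PRSS1-led cluster at D8 and D14 and a SERPINA1-led one at D21. No D8 cluster was named fibroblast-like.

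Levels are summed UMIs per 1000000 UMIs (CPM). The libraries read the 3′ end, so that CPM was not scaled by the length of the mRNA. CPM counts captured molecules, and whether the captured share is equal between genes was not tested. Over the kept cells, 41 of the 43 genes had a UMI at D8, 42 at D14 and 41 at D21. At least 20 CPM in a day or class with at least 30 cells was reached by 28 genes, a further 6 reached 5 CPM, and 9 stayed below that.

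Type IV collagen genes lie in head-to-head pairs that start transcription away from each other, so that their promoter windows overlap. Of the 43 genes, 31 had an entry in the RefSeq promoter table (GRCh38.p14), which holds 250 bases before to 50 bases after each start. COL1A1, COL1A2, COL2A1, COL3A1, COL5A2, COL6A1, COL6A5, COL8A1, COL9A3, COL14A1, COL20A1 and COL22A1 had none. The windows of COL4A1 and COL4A2 shared 226 of 300 bases with starts 127 bases apart, those of COL4A5 and COL4A6 shared 121 bases with starts 380 apart, and those of COL4A3 and COL4A4 shared 82 bases with starts 419 apart. Below, the plus-strand window of each of the 2 expressed pairs is shown because the chain ratios of these pairs are described later, with the bases that also lie in the partner's window in capitals. The first is at chr13:110307034-110307333 and the second at chrX:108439588-108439887, both on the plus strand.
COL4A2: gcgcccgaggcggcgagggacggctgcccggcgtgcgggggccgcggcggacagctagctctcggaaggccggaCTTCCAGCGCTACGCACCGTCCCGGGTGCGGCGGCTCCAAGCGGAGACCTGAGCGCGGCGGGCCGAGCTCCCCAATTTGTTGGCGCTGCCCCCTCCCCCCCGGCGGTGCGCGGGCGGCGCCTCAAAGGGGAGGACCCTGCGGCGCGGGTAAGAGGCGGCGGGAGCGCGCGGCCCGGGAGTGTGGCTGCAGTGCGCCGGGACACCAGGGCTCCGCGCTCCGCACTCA
COL4A5: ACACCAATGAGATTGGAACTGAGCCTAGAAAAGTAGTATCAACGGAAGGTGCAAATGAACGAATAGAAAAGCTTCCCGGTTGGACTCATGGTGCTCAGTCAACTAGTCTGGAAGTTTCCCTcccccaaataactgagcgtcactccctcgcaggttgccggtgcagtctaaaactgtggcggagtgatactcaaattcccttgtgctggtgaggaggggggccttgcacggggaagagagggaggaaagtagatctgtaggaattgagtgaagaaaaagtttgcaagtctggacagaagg
In COL4A2 the shared stretch runs from the 75th base of the window through the start to the window's end, while in COL4A5 the shared stretch is the upstream end. The CCAAT box (CCAAT on either strand) was in windows of 12 of the 31 genes, among them COL4A1, COL4A2, COL4A5 and COL4A6. It was in 32.6% of the 43 collagen windows and in 34.6% of all 35116 windows. The GC box (GGGCGG on either strand) was in 55.8% of collagen windows against 45% of all, and TATAAA in 18.6% against 11.5%. The motifs were searched independently, and windows of a head-to-head pair share only the matches within their shared bases. The GC box, for example, was in windows of COL4A6 and COL4A3 but not of COL4A5 and COL4A4.

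Collagen mRNA as a whole was higher on each later day. The 43 genes together held 1281 CPM (1271 to 1292) at D8. They held 2281 CPM (2268 to 2295) at D14 and 3113 CPM (3093 to 3132) at D21. The makeup also differed by day: fibrillar genes held 36.1% of collagen UMIs in the D8 library, 60.2% in the D14 and 71.6% in the D21 library. Cartilage genes went the other way, with 25.2%, 9.21% and 3.23%. Basement membrane genes held 23.6%, 15.9% and 13.3%, although their summed level was 302 CPM at D8, 363 at D14 and 415 at D21. The D21 total depends on the mitochondrial limit, with 5091 CPM at a limit of 5% and 2286 CPM at 20%, where D14 had 2332 and 2260 CPM. Clustered again at 20%, D21 had 1511 CM-like cells in place of 548 and 862 fibroblast-like cells in place of 813. Under the 10% limit, fibroblast-like cells were 9.51% of kept cells at D14 and 41.8% at D21. This gap depends on the clustering. With a clustering resolution of 0.4, the class held 1564 of the 3585 kept cells at D14 and 842 of the 1946 at D21. The part of this class makeup in the totals and shares by day was not tested.

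**Figure D1:**
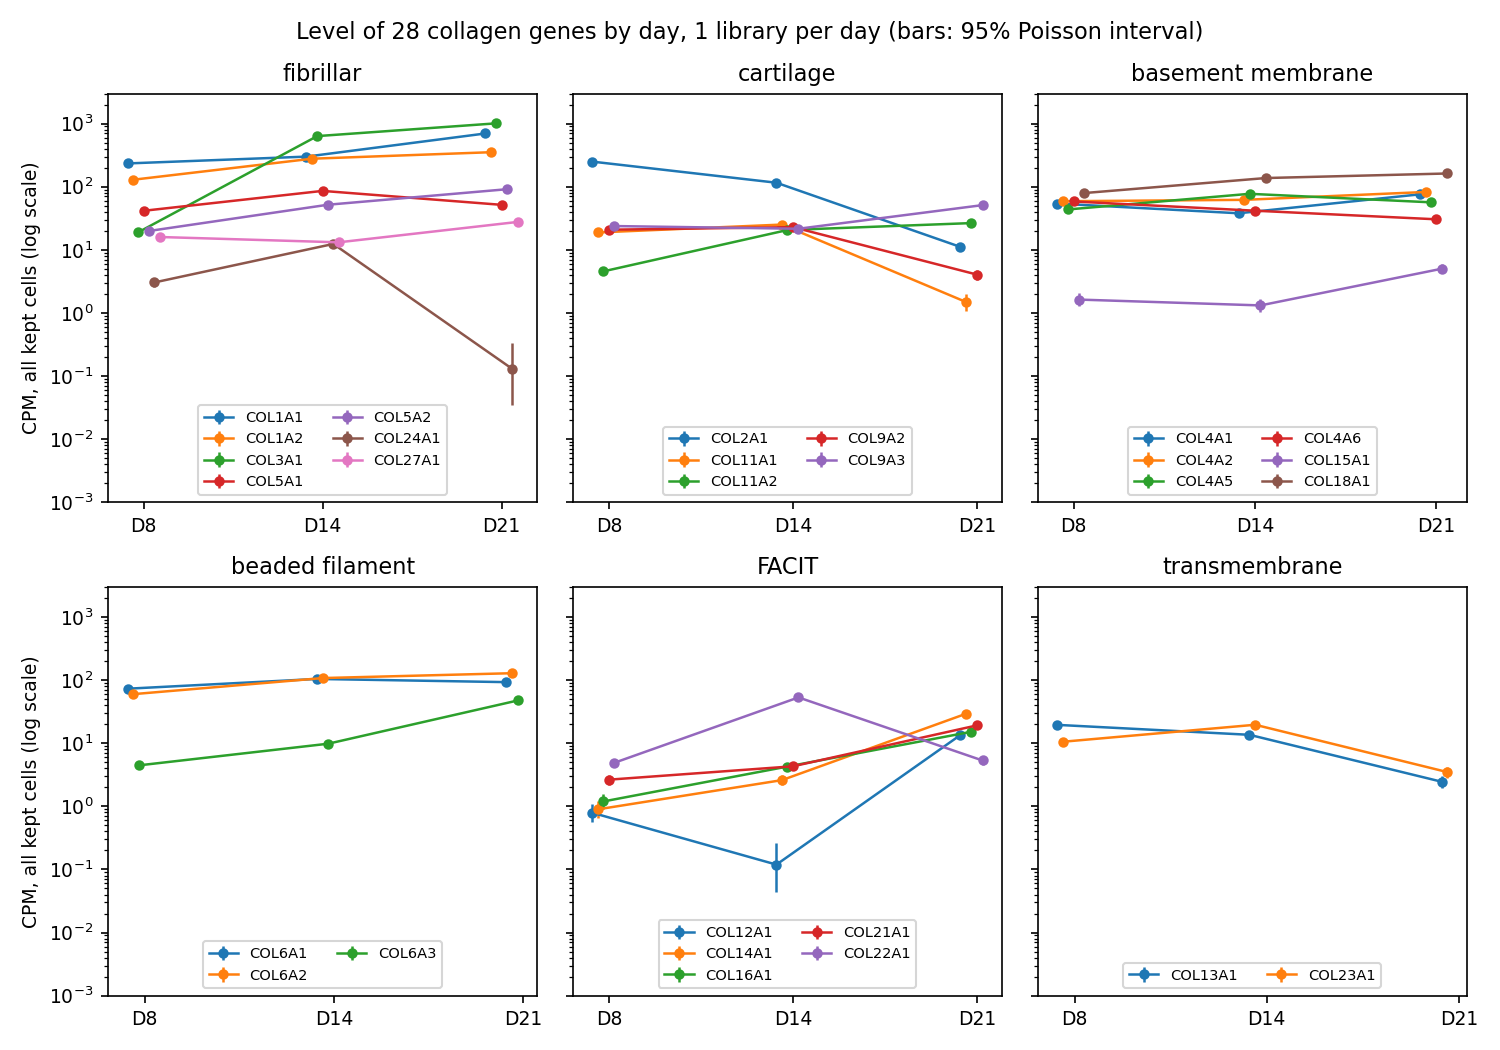
Level of the 28 collagen genes at 20 CPM or more, over all kept cells of each day in CPM on a log axis, in 1 panel per role, with counting intervals as bars and lines joining the 3 libraries. COL3A1 is at 19.0 CPM at D8 and 1009 CPM at D21, while COL2A1 is at 250 and 11.1 CPM.

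**Figure D2:**
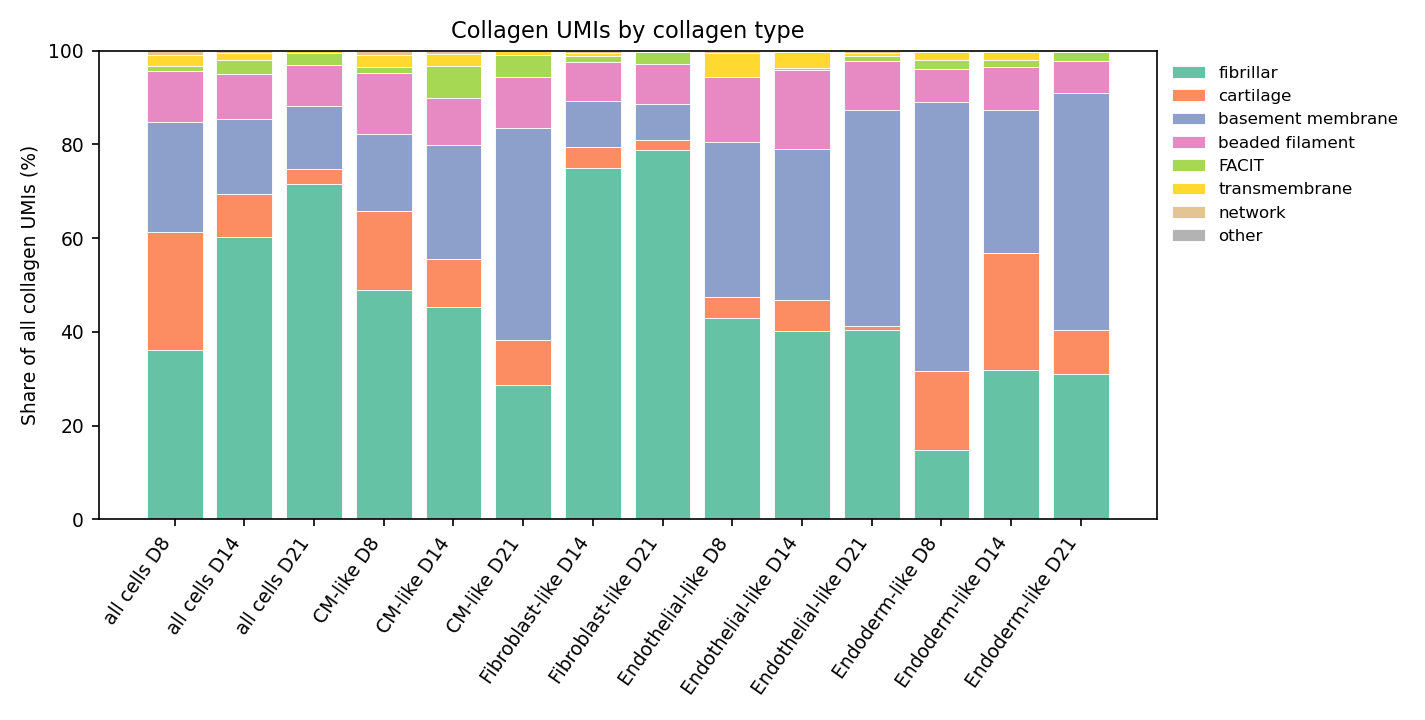
Share of collagen UMIs by role of the gene in percent, for all kept cells and for each cell class on each day. Fibrillar genes hold 78.8% in fibroblast-like cells at D21 and 28.6% in CM-like cells, where basement membrane genes hold 45.2%.

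COL3A1, the single chain of type III collagen, was the member with the most UMIs from D14 on. Its level was 19.0 CPM in the D8, 634 CPM in the D14 and 1009 CPM in the D21 library, a log2 ratio of 5.06 (4.97 to 5.16) from D8 to D14 and 0.67 (0.65 to 0.69) from D14 to D21. COL1A1, the more abundant chain of type I collagen, was at 234, 300 and 698 CPM. COL1A2, its partner chain, was at 129, 278 and 352 CPM. The 3 genes thus took different courses: most of the COL3A1 difference lay between D8 and D14, and most of the COL1A1 difference between D14 and D21. With a mitochondrial limit of 20%, the log2 ratio from D14 to D21 was 0.61 for COL1A1, 0.08 for COL3A1 and -0.33 for COL1A2 against 1.22, 0.67 and 0.34, so that the gain after D14 depends on which D21 barcodes are kept.

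Among the named classes, the type I and III genes were highest in the fibroblast-like class at D14 and at D21. There COL1A1 reached 676 CPM (653 to 699) at D14 and 1484 CPM (1461 to 1507) at D21. COL3A1 was at 1480 and 2127 CPM, and COL1A2 at 410 and 758 CPM. At D21 this class held 35.6% of all UMIs, 75.8% of those of COL1A1, 76.8% of COL1A2 and 75.1% of COL3A1. At D14 it held 9.79% of all UMIs and 22.9% of COL3A1 UMIs, and an unnamed D14 cluster led by MFAP4, with 1068 cells, had 1151 CPM of COL3A1 and 374 CPM of COL1A1. The D14 class depends on the clustering: it held 341 cells here and 1564 at a resolution of 0.4, where its collagen total was 3174 CPM in place of 3699 CPM, and no D14 cluster was named fibroblast-like with a mitochondrial limit of 20%.

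CM-like cells also held these mRNAs, in amounts that differed by day. COL1A1 stood at 409 CPM (394 to 423) in CM-like cells of D8, 138 CPM in those of D14 and 55.4 CPM (50.1 to 61.0) in those of D21. COL1A2 was at 304, 313 and 21.6 CPM, so it stayed level to D14 and was 14.5-fold lower at D21. COL3A1 was at 11.3, 204 and 122 CPM. The order of the 3 genes in CM-like cells therefore differed by day, with COL1A1 first at D8, COL1A2 first at D14 and COL3A1 first at D21. Endoderm-like cells had the same first gene at D14 and at D21. Their COL1A2, COL1A1 and COL3A1 were at 121, 92.4 and 26.1 CPM at D14, and at 23.1, 40.0 and 51.8 CPM at D21. Whether the order is particular to CM-like cells was not tested. At D21 fibroblast-like cells were above CM-like cells by a log2 ratio of 4.74 (4.60 to 4.89) for COL1A1, 5.14 (4.91 to 5.37) for COL1A2 and 4.12 (4.03 to 4.22) for COL3A1. At D14 the same ratios were 2.29, 0.39 and 2.86.

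Values of CM-like cells at D21 depend on 60 unnamed cells with a median of 19310.5 UMIs, led by CXCL14 and MYL2, that had 4160 CPM of collagen with 900 CPM of COL1A1 and 1336 CPM of COL3A1. Clustering at a resolution of 0.4 put 59 of them into the CM-like class, which was then at 172 CPM of COL1A1, 78.3 of COL1A2 and 277 of COL3A1. The D14 to D21 log2 ratio of COL1A1 in CM-like cells was then 0.22 in place of -1.32, and that of COL3A1 0.27 in place of -0.74, while COL1A2 remained lower at -2.01. The 8 fibroblast markers summed to 108 CPM in CM-like cells at D21, with 0 of 8 at 0, against 1825 CPM in fibroblast-like cells, 815 CPM in the 60 cells, 70.4 CPM in the endoderm-like class and 115 CPM in CM-like cells of D14 (1 of 8 at 0). The 10 CM markers summed to 27904.5 CPM in the 60 cells, against 54457 CPM in CM-like and 2912 CPM in fibroblast-like cells at D21. The part of free RNA or of mixed droplets in the collagen and marker levels was not tested.

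**Figure D3:**
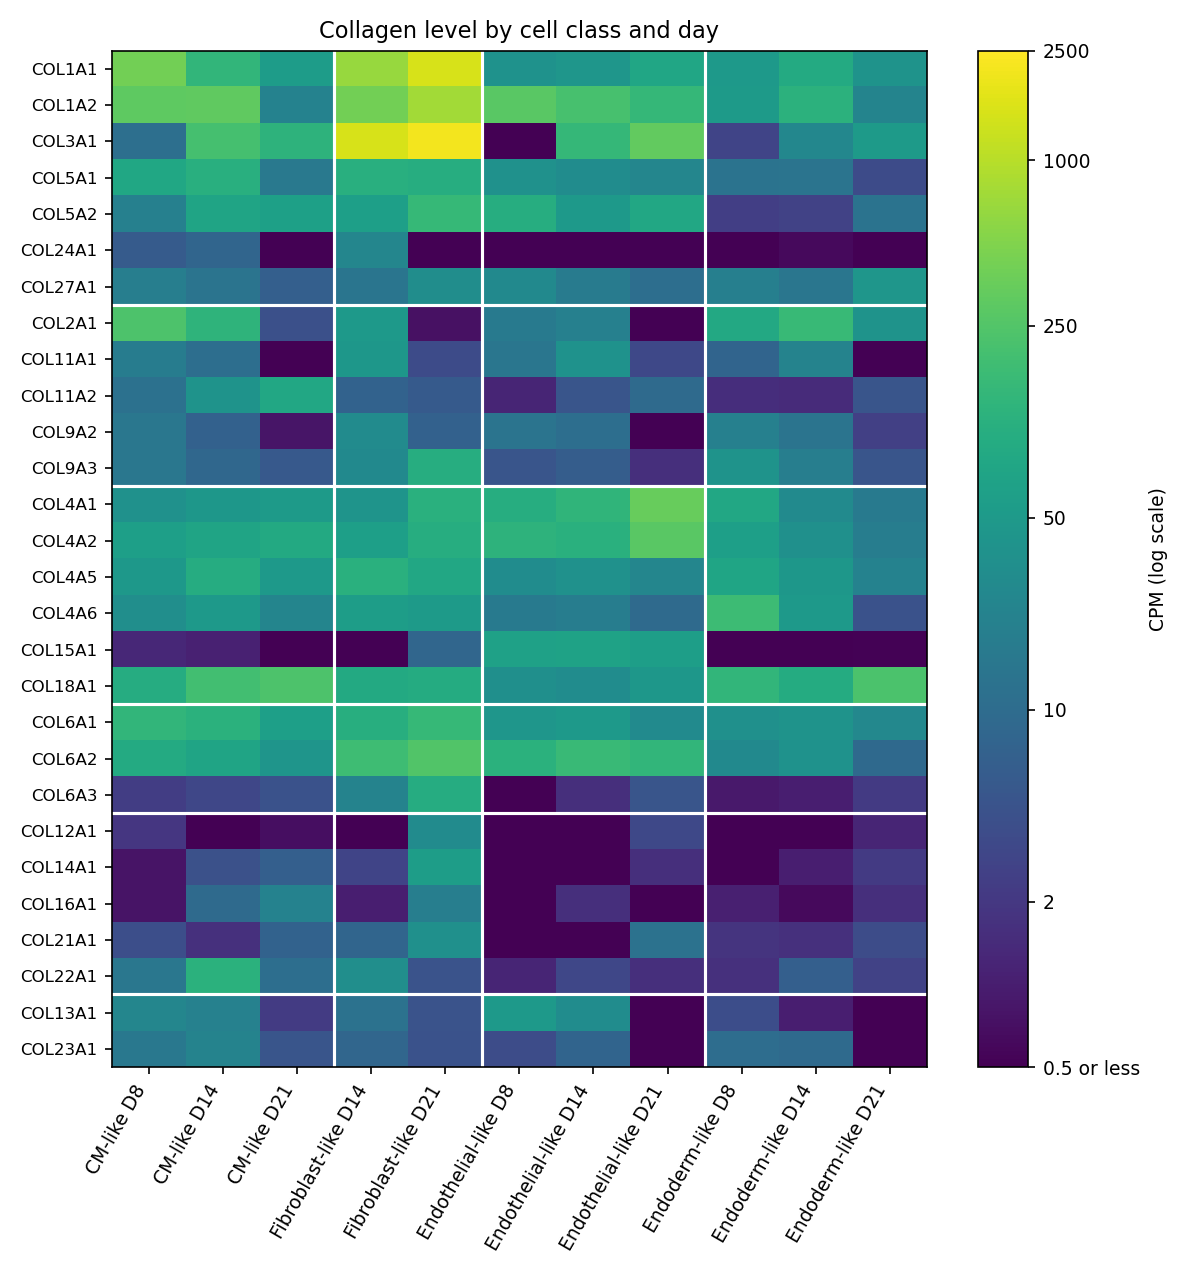
Level of the same 28 collagen genes (rows, grouped by role) in each cell class and day (columns) in CPM on a log colour scale with a floor at its darkest colour. COL1A1, COL1A2 and COL3A1 are brightest in fibroblast-like cells at D21, COL15A1 in endothelial-like cells and COL11A2 in CM-like cells at D21.

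Shares of cells were counted after each cell was thinned to 4000 UMIs. At D21, 90.7% (88.4 to 92.6) of fibroblast-like cells had a COL1A1 UMI, 19.2% (15.9 to 22.7) of CM-like cells and 9.45% (6.42 to 13.3) of endoderm-like cells. The endoderm-like class is given as the background because its collagen total was the lowest of the named classes on each day. A share above it is thus partly a result of this choice. Unthinned, with median depths of 12655, 12721.5 and 21922 UMIs, the shares were 96.4%, 40.0% and 30.6%. COL3A1 was in 99.3%, 22.4% and 15.0% of these cells. For COL1A2 the CM-like share at D21 was 7.30% (5.27 to 9.81), whose interval overlaps the endoderm-like 4.23% (2.27 to 7.13). That difference was not tested. At the earlier days the CM-like shares were above those of endoderm-like cells: 68.5% for COL1A1 at D8 against 14.0% in endoderm-like cells, and 53.9% (50.9 to 56.9) for COL1A2 at D14 against 26.8% (20.9 to 33.2).

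The UMIs were spread unevenly over the cells of a class. In CM-like cells the 10% of cells with the most COL3A1 held 66.2% of its UMIs at D14 and 68.7% at D21. At D21, in fibroblast-like cells, the top 10% held 22.4% of COL3A1 and 30.7% of COL1A1, with up to 163 COL1A1 UMIs in a cell. COL3A1 was thus close to universal in fibroblast-like cells and concentrated in few CM-like cells.

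Type V collagen sets the width of type I fibrils, and its chains differed in course. COL5A1 was at 41.5, 85.8 and 51.6 CPM over all cells in the D8, D14 and D21 libraries. COL5A2 was at 19.9, 51.8 and 91.2 CPM, and COL5A3 stayed at 0.449 CPM or less. COL5A1 was at 109 CPM in CM-like and 107 CPM in fibroblast-like cells of D14, and only 15.6 CPM in the CM-like class of D21. COL5A2 stayed at 63.5 CPM there, against 150 CPM in fibroblast-like cells. COL24A1, a minor fibrillar collagen, was seen mainly at D14, with 3.04, 12.4 and 0.129 CPM over all cells and 25.0 CPM in the fibroblast-like class of that day. COL27A1, a fibrillar collagen of developing cartilage, was at 16, 13.1 and 27.6 CPM, and its highest class was endoderm-like cells at D21 with 43.7 CPM (39.1 to 48.7).

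Among the cartilage collagens, COL2A1, the type II chain, was the highest of all 43 genes at D8. Its level was 250 CPM (245 to 254) in the D8, 116 CPM in the D14 and 11.1 CPM (9.96 to 12.3) in the D21 library, log2 ratios of -1.11 (-1.16 to -1.06) and -3.38 (-3.54 to -3.22). The mRNA was not held by 1 class at D8, with 231 CPM in CM-like cells, 389 CPM in dividing cells, 85.1 CPM in the endoderm-like class and 373 CPM in an unnamed D8 cluster of 1067 cells led by TSHZ2. At D21 endoderm-like cells held 86.9% of the COL2A1 UMIs that were left, at 39.6 CPM, and fibroblast-like cells were at 0.726 CPM. The type XI chains, which co-assemble with type II, parted: COL11A1 was at 18.8, 25.1 and 1.49 CPM, and COL11A2 at 4.55, 20.6 and 26.5 CPM.

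COL11A2 was highest in CM-like cells. It stood at 12.1 CPM (9.74 to 14.8) in this class in the D8 library, 39.4 CPM in the D14 and 83.6 CPM (77.1 to 90.5) in the D21 library. At D21 CM-like cells held 23.9% of all UMIs and 75.2% of those of COL11A2, and after thinning its UMIs were found in 26.8% of them, compared with 1.63% of the endoderm-like and 1.72% of the fibroblast-like class. COL11A1, by contrast, was highest in fibroblast-like cells at D14 with 44.7 CPM and only 0.271 CPM in the CM-like class of D21. Type IX, which decorates type II fibrils, also differed between its chains. COL9A3 was at 23.8, 21.6 and 51.0 CPM over all cells and at 102 CPM (95.8 to 108) in fibroblast-like cells at D21, COL9A2 at 20.8, 22.8 and 4.05 CPM, and COL9A1 at 5.60, 4.20 and 6.21 CPM. COL10A1, the hypertrophic cartilage collagen, had 6 UMIs, all at D14.

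Of the basement membrane genes, COL4A1 and COL4A2 code for the chains of the common type IV network. COL4A1 was at 54.0, 37.9 and 75.8 CPM over all cells, and COL4A2 at 58.8, 61.9 and 82.5 CPM. Both were highest in endothelial-like cells, where COL4A1 was at 102, 131 and 344 CPM (300 to 393) and COL4A2 at 122, 111 and 279 CPM (239 to 323) in the D8, D14 and D21 libraries. These values rest on 40 to 53 cells a day. In CM-like cells COL4A2 was at 60.9, 72.2 and 88.5 CPM and COL4A1 at 36.7, 45.2 and 51.6 CPM, with the highest value at D21 for both.

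The second expressed pair, COL4A5 and COL4A6, gives chains of more restricted basement membranes. COL4A5 was at 43.6, 77.1 and 56.5 CPM over all cells and COL4A6 at 58.3, 41.6 and 30.4 CPM. COL4A6 was highest in endoderm-like cells at D8, with 173 CPM (163 to 183), and was at 49.5 and 4.25 CPM there at D14 and D21. COL4A3 and COL4A4, chains best known from kidney, had 6 and 23 UMIs. COL18A1, whose C-terminal fragment is endostatin, was the highest basement membrane gene at 79.3, 137 and 162 CPM. It was at 97.2, 187 and 231 CPM (220 to 242) in CM-like cells and at 221 CPM (211 to 232) in endoderm-like cells at D21, against 95.8 CPM in fibroblast-like cells. COL15A1, a related collagen of the outer basement membrane zone, had its highest level in endothelial-like cells, at 65.7, 67.0 and 59.5 CPM in the D8, D14 and D21 libraries. That class held 72.4%, 65.2% and 24.5% of its UMIs. At D21 most of the others, 60% of the total, lay in fibroblast-like cells at 8.44 CPM. COL7A1, the anchoring fibril collagen, was at 6.5, 5.93 and 2.72 CPM.

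Type VI collagen forms beaded filaments from COL6A1, COL6A2 and a further chain, usually COL6A3. COL6A1 was at 73.3, 105 and 93.2 CPM over all cells, COL6A2 at 60.1, 108 and 129 CPM and COL6A3 at 4.47, 9.85 and 47.7 CPM. The fibroblast-like class had 22.8 CPM of COL6A3 at D14, with 22.6% of its UMIs against 31.5% in the MFAP4-led cluster, and 98.4 CPM (92.6 to 104) at D21, with 73.6% of its UMIs. COL6A6, an alternative to COL6A3, reached 5.72 CPM in the same class at D21, and COL6A5 had no UMI in a kept cell, which allows up to 0.0597 CPM over all D14 cells by the limit of 3 counts. COL8A1, a short-chain network collagen, was at 10.5, 8.90 and 1.97 CPM, and COL8A2 had 41 UMIs.

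Of the FACIT genes, 4 were found mainly at D21. COL12A1, which binds type I fibrils, was at 0.791, 0.119 and 13.5 CPM in the D8, D14 and D21 libraries, a log2 ratio of 6.82 (5.69 to 8.28) from D14 to D21 that starts from 6 UMIs. COL14A1, a related fibril-binding collagen, was at 0.898, 2.61 and 29.4 CPM, and COL21A1 at 2.65, 4.32 and 19.2 CPM. These 3 genes were highest in fibroblast-like cells at D21, with 30.7, 56.7 and 36.5 CPM. COL16A1 was at 1.2, 4.28 and 15.2 CPM, and in CM-like cells (21.7 CPM) about as high at D21 as in fibroblast-like cells (18.8 CPM), whose intervals of 18.5 to 25.3 and 16.3 to 21.5 overlap.

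COL22A1, a collagen of tissue junctions such as that of muscle and tendon, was highest in CM-like cells at D14. It stood at 14.5 CPM (12.0 to 17.5) in this class in the D8 library, 116 CPM (110 to 121) in the D14 and 10.7 CPM (8.49 to 13.4) in the D21 library. CM-like cells held 62.9% of its D14 UMIs and 29.0% of all UMIs. After thinning, 34.6% (31.8 to 37.5) of CM-like cells at D14 had a UMI against 0.939% (0.114 to 3.35) of endoderm-like cells, and the top 10% of cells held 34.5% of its UMIs. COL22A1 was therefore spread over many CM-like cells at D14, unlike COL3A1. COL19A1 was found in endoderm-like cells at D8, at 13.2 CPM, and COL20A1 had 20 UMIs.

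The transmembrane collagens were low. COL13A1 was at 19.6, 13.6 and 2.46 CPM over all cells and at 49.0 CPM in endothelial-like cells at D8, where D21 had no UMI and a limit of 4.69 CPM. COL23A1 was at 10.6, 19.7 and 3.50 CPM, COL25A1 reached 11.0 CPM in endothelial-like cells at D21 on 7 UMIs, and COL17A1 had 13 UMIs. COL28A1, the other collagen, had 15 UMIs. The 9 genes under 5 CPM ranged from no UMI for COL6A5 to 41 UMIs for COL8A2 over all kept cells.

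Counting members past 2-fold, among genes at 10 CPM or more in either group, sets the family beside all genes. From D8 to D14, 7 of 23 collagen genes were higher and 1 (COL2A1) was lower, where 8.95% of all 9105 genes were higher and 1.63% lower. From D14 to D21, 8 of 27 were higher and 7 lower, against 5.80% and 10.1% of all genes. The higher ones were COL1A1, COL27A1, COL9A3, COL6A3, COL12A1, COL14A1, COL16A1 and COL21A1, and the lower ones COL24A1, COL2A1, COL11A1, COL9A2, COL22A1, COL13A1 and COL23A1. The collagen median of the log2 ratio was 0.34 from D14 to D21, against -0.20 for all genes. COL4A1, with a log2 ratio of 1.00 just under 2-fold, was not counted.

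Within classes the same step looked different. In CM-like cells from D8 to D14, 5 of 23 collagen genes were higher and 2 lower, against 10.6% and 2.34% of all genes. From D14 to D21 in CM-like cells, 2 of 21 were higher (COL11A2 and COL16A1) and 10 lower, against 5.02% and 14.8% of all genes. The same step in fibroblast-like cells had 10 of 26 higher and 7 lower, against 4.93% and 9.72%. In endoderm-like cells 3 of 17 were higher and 10 lower, against 11.7% and 29.0%. The medians were -0.98 in CM-like, 0.52 in fibroblast-like and -1.21 in endoderm-like cells, against -0.17, -0.19 and -0.47 for all genes. Each contrast uses its own classes of the same 2 libraries, and the difference between classes was not tested.

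**Figure D4:**
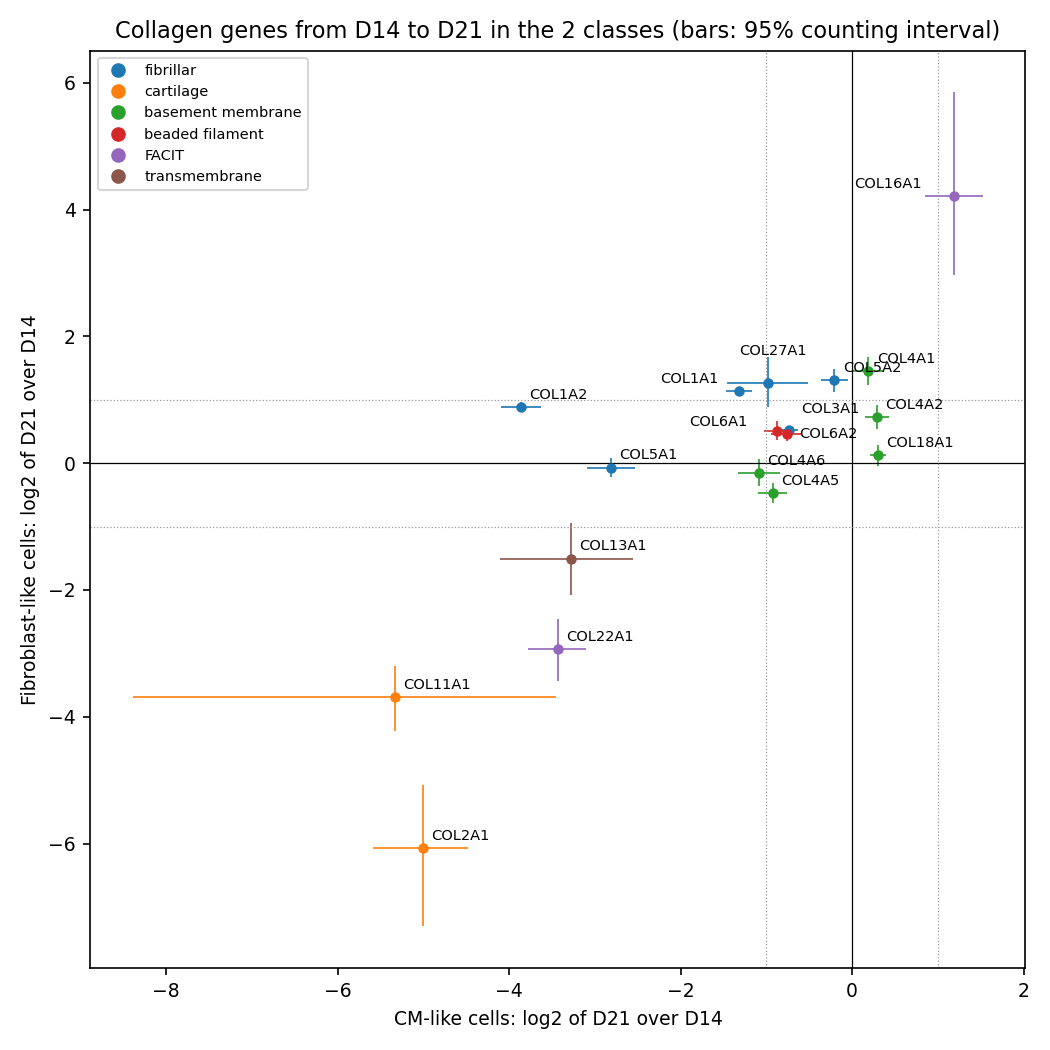
Log2 ratio of D21 over D14 in CM-like cells (x axis) and in fibroblast-like cells (y axis) for the 18 collagen genes at 10 CPM in both contrasts with finite intervals, coloured by role, with counting intervals as bars and dotted lines at 2-fold. COL1A1 lies at -1.32 in CM-like and 1.13 in fibroblast-like cells, COL2A1 at -5.01 and -6.08, and COL16A1 at 1.19 and 4.21.

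Between classes at D14, 8 of 24 collagen genes were 2-fold or more higher in fibroblast-like than in CM-like cells and 5 were lower, against 8.43% and 12.0% of all genes. At a resolution of 0.4, 8 were higher and only 2 lower, with COL2A1 at -0.32 in place of -1.37, COL18A1 at -0.45 in place of -1.09 and COL23A1 at 0.12. At D21, 15 of 21 were higher and 3 lower, against 14.8% and 14.4%. The 3 lower ones were COL11A2, COL18A1 and COL22A1, which were thus the collagen genes favouring CM-like cells. CM-like cells were above endoderm-like cells at D21 for 12 of 17 genes and below for 2 (COL27A1 and COL2A1), against 31.0% and 14.0% of all genes. Fibroblast-like cells were above endoderm-like cells for 17 of 20 genes and below for 2 (COL2A1 and COL18A1), against 26.4% and 12.5%. At D21, 6 of 6 fibrillar genes at 10 CPM were higher in fibroblast-like than in CM-like cells, while the summed basement membrane level was 455 CPM (443 to 468) against 450 CPM (435 to 466).

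Chains that assemble together were not at a fixed ratio of mRNA. COL1A1 to COL1A2 was 1.81, 1.08 and 1.98 over all cells of the successive days. In fibroblast-like cells it was 1.65 (1.56 to 1.74) at D14 and 1.96 (1.91 to 2.01) at D21, in CM-like cells 1.34 (1.27 to 1.42), 0.440 (0.417 to 0.464) and 2.57 (2.13 to 3.10), and in endothelial-like cells 0.133, 0.206 and 0.538. CM-like cells at D14 and endothelial-like cells at each day thus had more COL1A2 than COL1A1 UMIs, although the protein trimer holds more COL1A1 chains. Endoderm-like cells at D14 also did, with 589 COL1A2 and 450 COL1A1 UMIs. Whether the 2 mRNAs were captured equally was not tested.

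COL4A1 to COL4A2 stayed near one value in CM-like cells, with 0.603 (0.519 to 0.701), 0.626 (0.567 to 0.690) and 0.583 (0.512 to 0.662), and went from 0.670 (0.558 to 0.803) to 1.11 (1.02 to 1.2) in fibroblast-like cells. COL4A5 to COL4A6 was 1.44, 1.91 and 2.13 in CM-like cells and 0.437 (0.393 to 0.486), 0.917 (0.761 to 1.11) and 5.12 (3.49 to 7.74) in endoderm-like cells. Genes that start from overlapping windows, as printed above, were thus not at 1 ratio across classes. COL9A2 to COL9A3 was 0.875, 1.06 and 0.0793 over all cells and 1.07 (0.846 to 1.36) and 0.0696 (0.0546 to 0.0877) in fibroblast-like cells at D14 and D21. COL5A1 to COL5A2 was 2.09, 1.66 and 0.566 over all cells, and COL6A3 to COL6A2 was 0.0744, 0.0911 and 0.369.

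**Figure D5:**
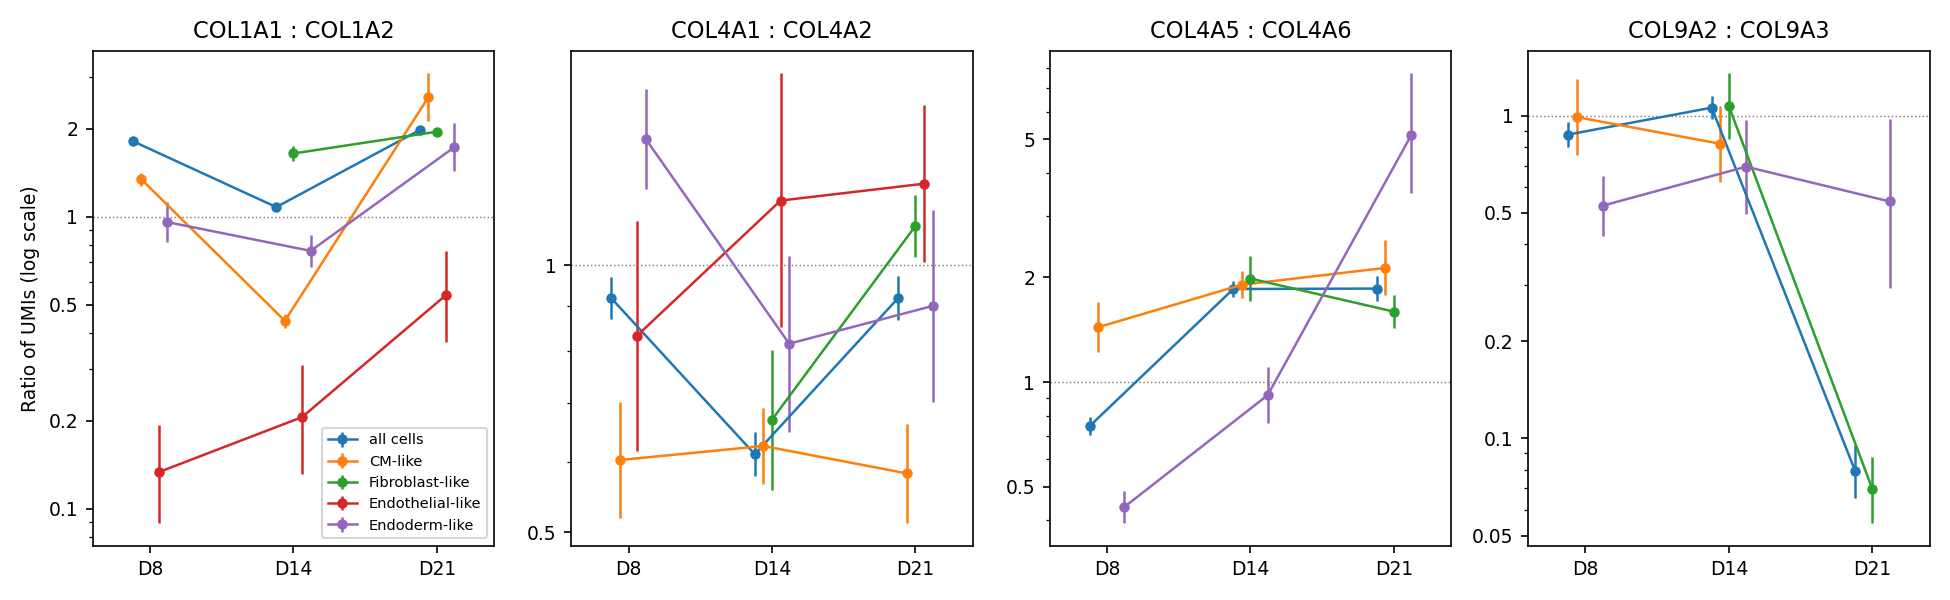
Ratio of summed UMIs of paired collagen chains on a log axis by day, for all kept cells and for 4 cell classes where the chains of a pair had at least 30 UMIs together, with counting intervals as bars. COL9A2 to COL9A3 drops to 0.0793 over all cells at D21 and COL4A5 to COL4A6 reaches 5.12 in endoderm-like cells.

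Type I and type III mRNA were also compared as a ratio, COL1A1 to COL3A1, which at D21 was 0.698 (0.684 to 0.712) in fibroblast-like cells, 0.772 (0.662 to 0.899) in endoderm-like cells and 0.454 (0.403 to 0.511) in CM-like cells. The counting interval of the endoderm-like ratio overlapped the fibroblast-like one, and that of the CM-like ratio lay below both. The uneven spread of UMIs over cells is not part of these intervals, and the differences were not tested. At D8, where no fibroblast-like class was found, it was 36.2 (29.2 to 45.3) in CM-like cells.

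Genes that fold, modify and trim collagen were set beside the family. Of 33 listed processing genes, 32 were in the table. Over all cells from D14 to D21, 2 of 24 at 10 CPM were higher and 6 lower, beside 5.80% and 10.1% of all genes, at a median log2 ratio of 0.09 against -0.20 for all genes. The most abundant were PPIB, a prolyl isomerase, with 399, 403 and 761 CPM in the D8, D14 and D21 libraries, P4HB, the shared subunit of prolyl 4-hydroxylase, with 315, 275 and 403 CPM, and SERPINH1, the collagen chaperone HSP47, with 341, 324 and 344 CPM. Among processing genes at 10 CPM, LOXL4, a crosslinking oxidase, and BMP1, a procollagen proteinase, had the largest gains to D21, by log2 ratios of 1.54 and 1.10. PLOD2, a lysyl hydroxylase, and P4HA1, the catalytic subunit of prolyl 4-hydroxylase, had the largest losses, by -1.48 and -1.43. Between classes at D21, 19 of 25 were higher in fibroblast-like than in CM-like cells and 1 (LOXL4) was lower, beside 14.8% and 14.4% of all genes. In CM-like cells from D14 to D21, 0 of 23 were higher and 11 lower, beside 5.02% and 14.8%.

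Of the basement membrane partners, 3 of 13 were higher and 2 lower from D14 to D21 over all cells, beside 5.80% and 10.1% of all genes. In fibroblast-like over CM-like cells at D21, 3 of 12 were higher and 6 lower, beside 14.8% and 14.4%. SPARC, a collagen-binding protein, was at 150, 192 and 412 CPM over all cells, PXDN, which crosslinks type IV collagen, at 73.4, 91.3 and 73.9 CPM, and the laminin chain LAMC1 at 70.8, 67.4 and 58.6 CPM. Among partners at 10 CPM, LAMA2 and LAMA4, laminin chains of muscle and vessels, had the largest gains from D14 to D21, by log2 ratios of 4.10 and 1.25, and LAMA1 and AGRN, a heparan sulfate proteoglycan, the largest losses, by -2.17 and -1.15. LAMA2 was at 68.9 CPM in CM-like and 2.91 CPM in fibroblast-like cells at D21.

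Of collagen receptors, 5 of 8 were higher in fibroblast-like than in CM-like cells at D21 and 1 lower (DDR1), beside 14.8% and 14.4% of all genes. Over all cells from D14 to D21, 2 of 6 were higher and 1 lower, beside 5.80% and 10.1%. ITGB1, the shared integrin beta chain, was at 219, 240 and 298 CPM over all cells. Among receptors at 10 CPM, DDR2, a receptor for fibrillar collagen, and ITGA1, an integrin alpha chain, had the largest gains after D14, by log2 ratios of 2.90 and 2.15, and ITGA2 and DDR1 the only losses, by -1.63 and -0.34. MRC2, an uptake receptor for collagen fragments, was at 23.7, 35.8 and 42.5 CPM. ITGA1 reached 156 CPM in the fibroblast-like class at D21 against 7.06 CPM in CM-like cells. Of degradation genes, 5 of 6 were higher in fibroblast-like than in CM-like cells at D21 and none lower, beside the same 14.8% and 14.4%. TIMP1, an inhibitor of matrix proteinases, was at 474, 719 and 1099 CPM over all cells, MMP2, which cleaves denatured and type IV collagen, at 41.1, 81.8 and 113 CPM, and TIMP3 at 30.5, 85.7 and 89.8 CPM. From D14 to D21 the largest ratios among those at 10 CPM were 0.61 for TIMP1 and 0.47 for MMP2 upward, and -0.37 for TIMP2 and -0.34 for MMP14, a membrane-bound collagenase, downward, and 0 of 5 passed 2-fold.

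Of the 12 other cartilage genes, 3 reached 10 CPM at D14 or D21, of which 2 were higher and 1 lower at D21, beside 5.80% and 10.1% of all genes. HAPLN1, a link protein of the hyaluronan matrix, was at 107, 170 and 32.7 CPM, SOX9, a regulator of COL2A1 in cartilage, at 11.9, 11.4 and 32.6 CPM and SOX6, its partner, at 3.89, 7.86 and 20.6 CPM. At D21 SOX9 reached 52.4 CPM in the fibroblast-like class, where COL2A1 was at 0.726 CPM and COL9A3 at 102 CPM. In the endoderm-like class of D21, SOX9 was at 37.6 CPM, COL2A1 at 39.6 CPM and COL9A3 at 4.65 CPM.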

How the data were processed

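The authors sequenced 3′ droplet libraries (1 per day) and made the deposited UMI counts per gene and barcode with Cell Ranger on hg19, and the submitters' processing notes also name Seurat 3.2.1. Barcodes were filtered by the study's limits, which left the stated number of cells for D14 and D21 and another number for D8. Counts were log-normalized to 10000 per cell and clustered with Seurat 5.3.0 in R 4.3.3 (20 components, resolution 0.8, fixed seeds) on 1985 of 2000 variable genes, without 15 collagen genes. Clusters of 20 or more cells took a class name if 3 or more of its markers stood 2-fold over the rest of the day (10 CPM added to both) and led those of any other class by 2 or more. The endoderm list joins hepatic and early endoderm markers. This was set after seeing that the D21 cluster met both. A name was withheld where another class had more markers among the leading genes. It was also withheld at low depth with no marker of the class among them. A cluster with 5 pluripotency and 3 endoderm markers was left unnamed, since the ectoderm genes DLX5 and TFAP2A were among its leading genes. Doublets were kept and no caller was used. Counts were then summed per day and class with Python 3.11.15 and scipy 1.17.1. Intervals are exact Poisson for CPM, Clopper-Pearson for shares and exact binomial splits for ratios, and the limit for no UMI is 3 counts. Collagen genes at 20 CPM or more in a day, or in a named class of at least 30 cells, were described with values. In each companion list the 3 highest genes and the 2 largest ratios each way between D14 and D21, among genes at 10 CPM or more, were named. The gene lists, members and comparisons were chosen with earlier results of these data known. Ratio steps were tested on simulated data with a seed of 1. The alternatives were other mitochondrial limits, resolutions, scalings, filters and thinning, with edgeR 4.0.16 for TMM. On the same strand, only MIR3606 (COL3A1), MIR711 (COL7A1) and MIR936 (COL17A1) overlap a collagen gene.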

Additional observations from a re-analysis of the deposited data

Results flagged for a closer look

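COL1A1 differed in direction between classes from D14 to D21: its log2 ratio was -1.32 in CM-like, 1.13 in fibroblast-like and -1.21 in endoderm-like cells. COL9A3 differed in the same way, with 1.82 in fibroblast-like and -2.02 in endoderm-like cells. Each rests on 1 library per day, and neither difference was tested. The CM-like ratio of COL1A1 was 0.22 at a clustering resolution of 0.4.

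Barcodes outside the limits also held collagen mRNA. The 43 genes were at 1558 CPM in the 878 D8 barcodes with 2000 genes or fewer, at 2328 CPM in the 820 such barcodes of D14 and at 1807 CPM in the 5221 of D21. In barcodes over the mitochondrial limit they were at 1975 CPM at D14 (204 barcodes) and 1239 CPM at D21 (1982 barcodes). In those D21 barcodes COL1A1 was at 111 CPM and COL3A1 at 182 CPM, against 698 and 1009 CPM in kept cells, while COL18A1 was at 269 CPM against 162 CPM.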

How the results depend on the processing

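No paired analysis was possible because each day is 1 library, and for the same reason no replicate could be left out. Of 579 recomputed log2 ratios whose reported value was past 2-fold, 577 kept their direction and 526 also stayed past 2-fold. The 2 that reversed did so at resolution 0.4: COL1A1 in CM-like cells from D14 to D21 (0.22) and COL23A1 in fibroblast-like over CM-like cells at D14 (0.12). Part of the kept directions was fixed in advance. Dropping the filter on low genes leaves each ratio unchanged. TMM and median-of-ratios scaling shift all ratios of a step equally, by too little to reverse a value past 2-fold. Summed collagen at D8, D14 and D21 was 1262, 2332 and 5091 CPM at a mitochondrial limit of 5%, and 2260 and 2286 CPM at D14 and D21 at 20%. It was 1333, 2383 and 3369 CPM without the 5% of cells with the most UMIs, 1266, 2085 and 3447 CPM with TMM and 1266.5, 2065 and 3478 CPM with median-of-ratios scaling. TMM moved the median log2 ratio of all genes from D14 to D21 from -0.20 to 0.10, and median-of-ratios scaling to 0.13. Collagen genes higher at D21 than D14 numbered 13 at the 5% limit and 5 at 20%. Without a filter on low genes, 13 were higher and 5 lower at D14 than D8, 13 were lower at D21 than D14, and 2 processing genes were lower at D14 than D8. With means of log-normalized values, 1 was higher and 0 lower at D14, and 0 and 0 at D21. Log2 differences are compressed on that scale. From D14 to D21 over all cells, COL12A1 was at 0.12 in place of 6.82 and COL2A1 at -0.75 in place of -3.38. Few genes at these levels could pass the 2-fold limit there, so these counts cannot show whether the main counts hold. Many of the ratios that did not stay past 2-fold came from this alternative. CM-like totals at D14 were 1936 CPM at resolution 0.4, 1807 at 1.2 and 1931 with all variable genes kept. At D21 they were 1412 CPM at resolution 0.4, 964 with all variable genes and 920 at the 20% limit clustered again, with fibrillar shares of 45.2%, 27.3% and 19.3%. Fibroblast-like totals were 3174 CPM at D14 at resolution 0.4, where 2 collagen genes were lower than in CM-like cells, and at D21 5860 CPM with all variable genes and 5963 CPM at the 20% limit. At that limit no D14 cluster was named fibroblast-like, so its alternatives gave no value. Unthinned COL1A1 shares at D21 were 40.0% (CM-like), 96.4% (fibroblast-like) and 30.6% (endoderm-like), and those for at least 2 UMIs 4.93%, 81.2% and 2.28%. The cause of these shifts was not tested beyond what each alternative changes.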

Other observations

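Cells of unnamed clusters held collagen mRNA at levels of their own. At D8 a cluster led by TSHZ2 (1067 cells) held 1476 CPM of collagen with 296 CPM of COL1A1, a cluster led by NMB and DIO3 (258 cells) held 1048 CPM with 192 CPM of COL1A1, and a cluster led by SFRP2 and POU5F1 (200 cells) held 487 CPM with 39.1 CPM of COL1A1. At D14 the MFAP4-led cluster held 3044 CPM. The SFRP2-led cluster held 869 CPM at D14, with 122 CPM of COL2A1 and 40.7 CPM of COL3A1.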
